A study of Drosophila melanogaster with 12 samples.

Results

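Embryos of Drosophila melanogaster that carry the WDd allele of elav were compared with embryos null for both elav and its relative fne. The comparison takes every library labelled with either genotype, 3 of WDd and 3 of the double null, which are 6 of the 12 libraries of the series. It covers all genes that passed a filter on low counts, 14031 of 17561. Poly(A) RNA of whole embryos aged 20 to 24 h was sequenced and read counts per gene were deposited. The first group is labelled elav[WDd] and the second elav[null] fne[null]. Embryos of both groups were taken for lacking the fluorescent FM7 KrGFP balancer, an X chromosome, with autofluorescence used to judge their form, and the series' text calls them homozygous. WT, the control, carries the elav[e5] allele over FM7 per the labels and the elav null allele over FM7 per the file headers. It is given mainly as a level beside the other groups, and WDd is set against it in a few tests. The WT libraries also share the estimate of spread behind each p-value. What the WDd allele changes is not described in the labels, and no sex is given for the embryos. It is also not stated that libraries of 1 genotype were collected separately, so spread between them may be technical, and the p-values rest on that spread.

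ELAV is an RNA-binding protein of neurons, long used as a marker of them, that acts on alternative splicing and on the choice of poly(A) sites in neuronal transcripts. FNE and RBP9 are its closest relatives in the fly, and FNE can take over part of the work of ELAV when elav is lost. The title of the study asks about multimerization of ELAV in such RNA programmes. The table of counts per gene used here holds neither splicing nor poly(A) site use, so only the summed level of each gene was compared. In RNA from whole embryos, fewer cells of a type and less RNA per cell cannot be told apart.

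Library totals were 72103076, 74867886 and 74762460 counts in WDd and 61618321, 86777299 and 50165513 in the double null. At an equal depth of 2e+07 counts the WDd libraries detected 13454, 13970 and 13325 genes and the double null libraries 15054, 11557 and 15579. The double null libraries thus spread around the WDd range on both sides. Mitochondrial rRNA took 3.21%, 1.95% and 3.61% of the counts in WDd and 6.20%, 8.55% and 6.36% in the double null. Pseudogenes of rRNA, which are not expected in poly(A) RNA, summed to 22.4, 67.4 and 17.8 CPM (read counts scaled to the size of the library) in WDd and to 1994, 44.9 and 6042 CPM in the double null. Double null replicates 1 and 3 therefore stand apart from replicate 2 in these transcripts, and the part of this in the results below was not tested beyond leaving out each library in turn.

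Another library stood against its label. The library labelled elav[null] replicate 3, which is in neither group compared but shares the estimate of spread behind each p-value, had 36.2 CPM of fne, against 173 and 243 CPM in the other elav[null] libraries and 19.6, 30.6 and 19.8 CPM in the double null. It also had 109 CPM of w and no count of Setd3, where the other elav[null] libraries had 6.43 and 14.7 CPM of w and 5.89 and 4.54 CPM of Setd3. In these 3 genes it thus lay near the double null. Without it 14697 genes passed the filter, of which 2504 were higher in WDd and 1344 lower, in place of 2007 and 926. Where a count of a list moved by over 1.5 times without elav[null] replicate 3, that count is given beside it, and leaving out any 1 library otherwise means 1 of the 6 compared.

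**Figure D1:**
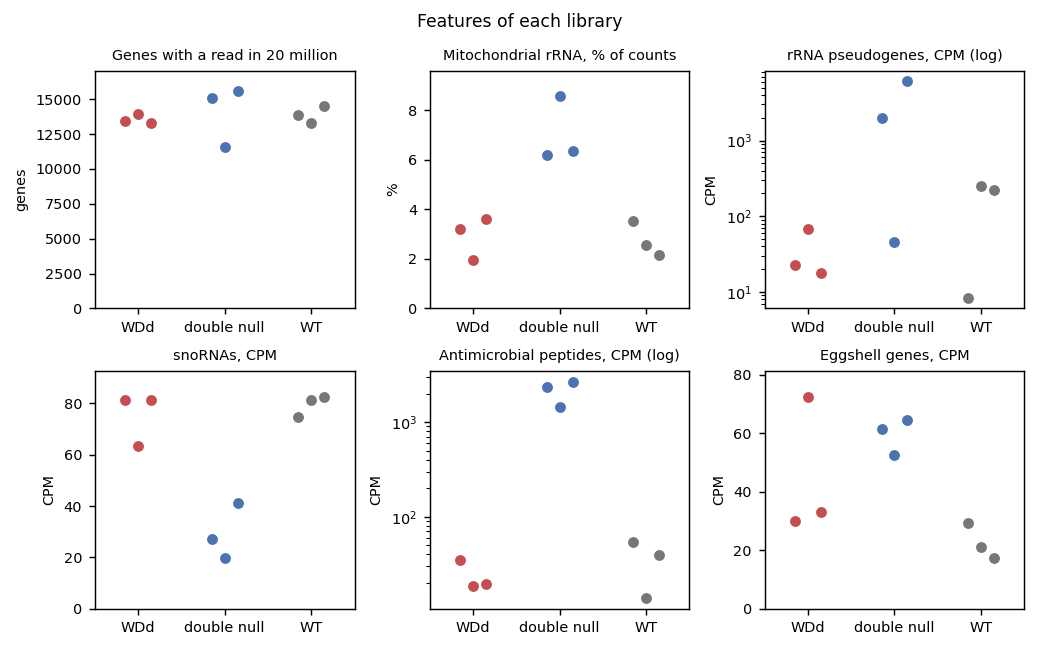
Features of each library in WDd, the double null and WT, with genes detected at equal depth, mitochondrial rRNA as a percentage of counts, and summed CPM of rRNA pseudogenes, snoRNAs, antimicrobial peptides and the list of eggshell and female germline genes (the rRNA pseudogene and antimicrobial panels have log axes). Each point is a library. The antimicrobial sum lies at 18.7 to 35.1 CPM in WDd and at 1434 to 2673 CPM in the double null, while the rRNA pseudogenes are high in 2 of the 3 double null libraries.

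The 2 genes that define the genotypes were read first. elav (X: 509235 to 523226 in dm6) had 146, 191 and 155 CPM in WDd, against 4.99, 5.53 and 6.12 CPM in the double null (difference 4.88 ± 0.31 SE, edgeR adjusted p = 8.89e-07). The difference in brackets is the log2 fold change of WDd over the double null with its standard error (SE). The WDd libraries all lay above the double null libraries, and the WT mean was 113 CPM. fne (X: 12917477 to 12950417) had 214, 276 and 272 CPM in WDd, against 19.6, 30.6 and 19.8 CPM in the double null (difference 3.44 ± 0.52 SE, edgeR adjusted p = 0.000358), with a WT mean of 196 CPM. Both null alleles still left reads over their genes, and the span of elav overlaps that of the gene arg, so the residual elav level is uncertain. Rbp9 (2L: 2954762 to 2968434), which neither genotype is labelled to alter, had 73.5, 92.7 and 81.5 CPM in WDd, against 12.2, 10.3 and 13.2 CPM in the double null (difference 2.79 ± 0.32 SE, edgeR adjusted p = 4.69e-05). Its groups did not overlap either, and it overlaps another annotated gene as well, so its level carries the same doubt.

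Across all genes, 2007 were higher in WDd than in the double null (14.3% of those tested) and 926 were lower (6.60%) at an adjusted p under 0.05 by edgeR. These shares are the background for the count of every list and family below. Of the calls, 68.4% were higher with TMM scaling, 59.1% with library totals alone, 56.3% with RLE factors and 52.3% with DESeq2. RLE factors moved fold changes down by 0.14 (log2) at the median, so small shifts of a whole list carry that uncertainty. The groups did not overlap in 6839 genes (48.7%). Among called genes this held for 2005 of the 2007 higher and 912 of the 926 lower. A lack of overlap in a called gene below thus adds little to its call. At least a 2-fold difference held for 1340 of the higher and 536 of the lower genes. Against WT, WDd differed in 9 higher and 19 lower genes (0.200% of those tested), a comparison that shares the WDd libraries with the one described here. Higher and lower below give the direction between WDd and the double null, not a change from WT. Leaving out any 1 of the 6 libraries gave 1346 to 1700 higher and 557 to 789 lower genes, with the lower count at 557 without WDd replicate 3 and 615 without double null replicate 1.

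**Figure D2:**
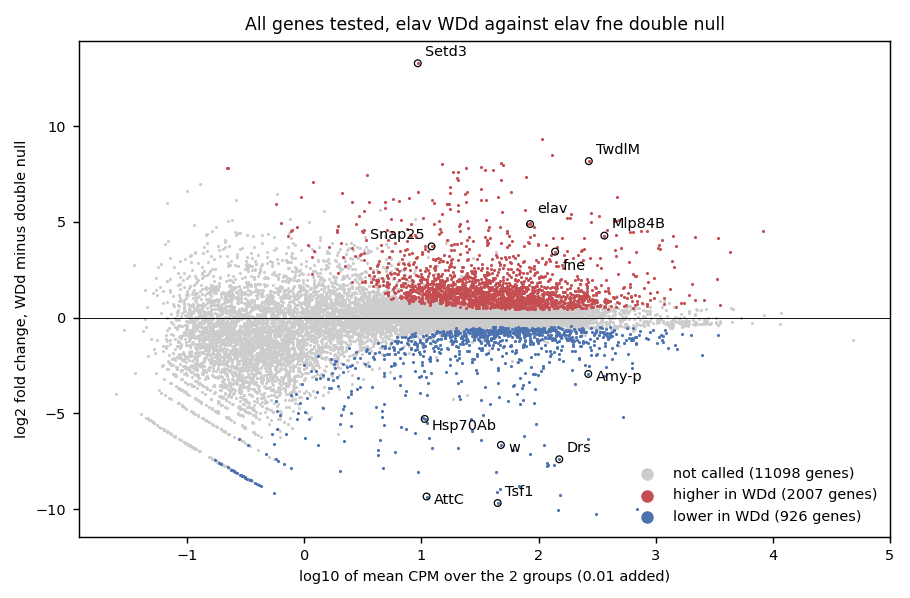
Log2 fold change of WDd minus the double null against the mean level of each of the 14031 genes tested, on a log10 axis of CPM. Red points are the 2007 genes called higher in WDd, blue points the 926 called lower and grey points the rest. A few chosen genes are circled, with elav and fne high and antimicrobial peptide genes such as Drs and AttC low.

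More neuronal genes were higher than lower in WDd. The neuronal lists hold 303 genes tested, of which 84 were higher and 10 lower, with a median log2 fold change of 0.44 against 0.011 over all genes tested. The share called higher is above the background of 14.3%, and the share called lower below that of 6.60%. The count of higher genes was 55 without WDd replicate 3 and 48 without double null replicate 1. That of lower genes was 5, 6 and 4 without WDd replicates 1, 2 and 3 and 5 and 6 without double null replicates 1 and 2.

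Genes of transmitter release were higher in WDd wherever they were called. Of 21 genes of the vesicle fusion machinery 7 were higher in WDd and none lower, and 11 were higher without elav[null] replicate 3. Snap25, a SNARE protein that brings vesicle and plasma membrane together, had 22.8, 22.8 and 22.3 CPM in WDd, against 1.77, 2.13 and 1.25 CPM in the double null (difference 3.72 ± 0.41 SE, edgeR adjusted p = 3.79e-05). This was the widest difference among the called members, and the WDd level lay below the WT mean of 40.7 CPM. Syt7, a calcium sensor of vesicle fusion, had 61.8, 61.7 and 74.4 CPM in WDd, against 15.4, 15.6 and 17.0 CPM in the double null (difference 2.04 ± 0.25 SE, edgeR adjusted p = 9.02e-05). Cadps, which primes dense core and synaptic vesicles, had 175, 199.7 and 203 CPM in WDd, against 79.0, 105 and 74.6 CPM in the double null (difference 1.16 ± 0.20 SE, edgeR adjusted p = 0.00116). The clamp protein complexin, cpx, had 557, 669 and 659 CPM in WDd, against 269.8, 339 and 285 CPM in the double null (difference 1.07 ± 0.24 SE, edgeR adjusted p = 0.00613), a difference of about the size of that in Cadps. nSyb, the vesicle SNARE, was called at a log2 fold change of 1.03, and without any 1 library except double null replicate 2 its edgeR adjusted p lay between 0.056 and 0.103. Of 20 genes of the active zone and of vesicle recycling 4 were higher and none lower, and 2 were higher without any 1 of the libraries except double null replicate 2. Without elav[null] replicate 3, 8 were higher. The adaptor of endocytosis nwk had 114, 133 and 128 CPM in WDd, against 25.9, 37.0 and 27.6 CPM in the double null (difference 2.06 ± 0.44 SE, edgeR adjusted p = 0.00409). The scaffold gene dlg1, present on both sides of synapses, had 297, 348 and 324 CPM in WDd, against 146, 154 and 143 CPM in the double null (difference 1.13 ± 0.20 SE, edgeR adjusted p = 0.00135). The other called genes, Rab3 and Sap47, lost their calls without several of the libraries. The active zone protein gene brp had 271, 408 and 311 CPM in WDd, against 196, 238 and 271 CPM in the double null (difference 0.49 ± 0.31 SE, edgeR adjusted p = 0.305), which did not pass the test.

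Genes for making and moving transmitters had the largest median shift of the neuronal lists after the ELAV family itself, 1.12, and 13 of its 20 genes were higher in WDd with none lower. ChT, the choline transporter of cholinergic neurons, had 38.7, 40.8 and 45.9 CPM in WDd, against 15.6, 21.1 and 16.7 CPM in the double null (difference 1.23 ± 0.21 SE, edgeR adjusted p = 0.000889). The dopamine transporter gene DAT had 24.4, 26.6 and 27.1 CPM in WDd, against 7.74, 6.57 and 9.35 CPM in the double null (difference 1.72 ± 0.33 SE, edgeR adjusted p = 0.00185). The serotonin transporter gene SerT had 18.3, 19.6 and 18.6 CPM in WDd, against 7.01, 4.24 and 9.15 CPM in the double null (difference 1.47 ± 0.29 SE, edgeR adjusted p = 0.00246). Neither monoamine transporter had a double null library within the WDd range. The GABA transporter gene Gat had 346, 316 and 367 CPM in WDd, against 149.8, 210.1 and 139 CPM in the double null (difference 1.04 ± 0.20 SE, edgeR adjusted p = 0.00221). Genes of synthesis and vesicle loading of several transmitters are also in the list, and those given next were chosen after their values were seen. The log2 fold changes were 1.69 for the acetylcholine enzyme ChAT, 1.16 for the GABA enzyme Gad1 and 1.63 for the vesicular glutamate transporter VGlut. The edgeR adjusted p was 0.00284 for ChAT, 0.0193 for Gad1 and 0.00525 for VGlut. VGAT, which loads GABA, had a log2 fold change of 3.05 and Vmat, which loads monoamines, of 2.16, both called higher. Gad1 was not called without WDd replicate 1 or 3 or double null replicate 1 or 3 (edgeR adjusted p 0.053 to 0.0852), nor VGAT without double null replicate 2 (0.0551).

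Among transmitter receptors 13 of 34 were higher in WDd and none lower (median log2 fold change 0.54). The count was 7 without WDd replicate 1, WDd replicate 3 or double null replicate 1, and 8 without double null replicate 2 or 3. nAChRalpha4, a subunit of nicotinic acetylcholine receptors, had 50.5, 59.4 and 51.4 CPM in WDd, against 5.94, 7.01 and 6.35 CPM in the double null (difference 3.06 ± 0.56 SE, edgeR adjusted p = 0.00145). The metabotropic glutamate receptor gene mGluR had 49.2, 61.4 and 59.8 CPM in WDd, against 13.5, 12.1 and 13.8 CPM in the double null (difference 2.11 ± 0.41 SE, edgeR adjusted p = 0.0022). Octbeta2R, an octopamine receptor, had 66.9, 56.3 and 65.6 CPM in WDd, against 23.3, 13.6 and 29.4 CPM in the double null (difference 1.51 ± 0.26 SE, edgeR adjusted p = 0.001). Lcch3, a subunit of GABA-gated channels, had 16.4, 17.0 and 16.0 CPM in WDd, against 7.36, 4.66 and 7.33 CPM in the double null (difference 1.35 ± 0.26 SE, edgeR adjusted p = 0.00211). The nicotinic subunit had the largest fold change of these 4.

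Ion channel genes followed, with 14 of 30 higher in WDd and 1 lower (median log2 fold change 0.74). Irk2, an inward rectifier potassium channel, had 215, 173 and 208 CPM in WDd, against 27.2, 34.5 and 24.5 CPM in the double null (difference 2.79 ± 0.25 SE, edgeR adjusted p = 9.36e-06). sand, a potassium leak channel, had 34.4, 29.9 and 34.0 CPM in WDd, against 3.27, 4.83 and 3.53 CPM in the double null (difference 3.08 ± 0.33 SE, edgeR adjusted p = 2.83e-05). Shal, which carries fast transient potassium current, had 92.3, 94.6 and 98.1 CPM in WDd, against 28.7, 29.7 and 31.2 CPM in the double null (difference 1.67 ± 0.23 SE, edgeR adjusted p = 0.000182). These potassium channels were all at less than 0.5 of their WDd level in each double null library. Teh4, an accessory subunit of the sodium channel para, had 42.4, 43.5 and 43.1 CPM in WDd, against 11.9, 9.88 and 12.1 CPM in the double null (difference 1.93 ± 0.26 SE, edgeR adjusted p = 0.000168). The 1 channel gene called lower was its relative Teh3, with a log2 fold change of −1.78.

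Of 39 neuropeptide genes 5 were higher and 1 lower, a share higher near the background of 14.3%. The count higher was 3 without any 1 of the WDd replicates or of double null replicates 1 and 3. Without elav[null] replicate 3 it was 14. Proc, which encodes the peptide proctolin, had 48.2, 44.9 and 50.6 CPM in WDd, against 7.80, 6.87 and 9.58 CPM in the double null (difference 2.57 ± 0.46 SE, edgeR adjusted p = 0.00119). Nplp1, a peptide precursor, had 69.9, 67.5 and 74.0 CPM in WDd, against 20.9, 22.2 and 20.6 CPM in the double null (difference 1.73 ± 0.42 SE, edgeR adjusted p = 0.00896). AstC, which encodes allatostatin C, had 27.3, 21.9 and 25.8 CPM in WDd, against 11.9, 11.1 and 11.2 CPM in the double null (difference 1.13 ± 0.25 SE, edgeR adjusted p = 0.00571). The tachykinin gene Tk went the other way, with 7.57, 7.19 and 8.08 CPM in WDd, against 16.8, 16.2 and 13.7 CPM in the double null (difference −1.03 ± 0.21 SE, edgeR adjusted p = 0.00312). Of 25 genes of chordotonal and other sensory neurons 3 were higher and 2 lower, shares near the background of 14.3% and 6.60%, and the median was −0.17. ppk, a sodium channel subunit of nociceptive neurons, had 31.9, 26.2 and 32.8 CPM in WDd, against 4.04, 5.12 and 4.32 CPM in the double null (difference 2.75 ± 0.29 SE, edgeR adjusted p = 2.83e-05). The mechanotransduction channel gene nompC had 39.0, 52.7 and 43.9 CPM in WDd, against 10.1, 14.3 and 12.7 CPM in the double null (difference 1.87 ± 0.24 SE, edgeR adjusted p = 0.000106). These channels separated the groups fully, while most genes of the sensory list were not called. The 2 lower genes, dila and wtrw, were not both called without any 1 of the libraries.

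Of 22 general neuronal and axonal genes 9 were higher and 1 lower, with 5 higher without WDd replicate 2 or double null replicate 2 and 4 without double null replicate 1. nrv3, a sodium pump subunit of the nervous system, had 868, 865 and 1022 CPM in WDd, against 256, 372 and 271 CPM in the double null (difference 1.61 ± 0.27 SE, edgeR adjusted p = 0.00084). The calcium sensor gene Frq2 had 46.8, 53.6 and 56.7 CPM in WDd, against 13.2, 21.2 and 13.4 CPM in the double null (difference 1.71 ± 0.29 SE, edgeR adjusted p = 0.00084). Its neighbour Frq1 had 198, 249 and 254 CPM in WDd, against 70.4, 131 and 74.5 CPM in the double null (difference 1.34 ± 0.30 SE, edgeR adjusted p = 0.00543). Appl, the fly relative of the amyloid precursor protein, was lower in WDd, with 208, 313 and 248 CPM in WDd, against 424, 554 and 418 CPM in the double null (difference −0.86 ± 0.25 SE, edgeR adjusted p = 0.0274). It lost the call without WDd replicate 1 or 3 or double null replicate 2, with adjusted p of 0.0832, 0.0869 and 0.0953 in edgeR. futsch, a microtubule protein of axons, had 116, 223 and 129 CPM in WDd, against 196, 204 and 247 CPM in the double null (difference −0.47 ± 0.38 SE, edgeR adjusted p = 0.444), which did not pass the test and where the groups overlap. Among 43 genes of axon guidance and neural adhesion 7 were higher and 2 lower, shares near the background of 14.3% and 6.60%. There were 3 higher and 1 lower without WDd replicate 3, and 2 higher without double null replicate 1. The median of 0.12 turned negative with RLE factors. NetA, a guidance cue of the midline, had 47.4, 45.6 and 46.0 CPM in WDd, against 19.3, 21.2 and 22.9 CPM in the double null (difference 1.14 ± 0.23 SE, edgeR adjusted p = 0.00329). dpr10, a cell surface protein of synaptic partners, had 36.1, 46.0 and 47.0 CPM in WDd, against 24.0, 19.6 and 25.6 CPM in the double null (difference 0.90 ± 0.18 SE, edgeR adjusted p = 0.00272). The adhesion gene Nrt was lower in WDd, with 63.5, 60.3 and 59.2 CPM in WDd, against 111, 119 and 97.7 CPM in the double null (difference −0.84 ± 0.16 SE, edgeR adjusted p = 0.0021).

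RNA targets of ELAV and FNE described in earlier work, 12 genes tested, held 2 higher and 1 lower, shares near the background of 14.3% and 6.60%. Their median of 0.13 turned negative with RLE factors. The 2 higher genes were fne itself and Ank2, an ankyrin of axons, with 313, 458 and 356 CPM in WDd, against 135, 149.7 and 151 CPM in the double null (difference 1.37 ± 0.38 SE, edgeR adjusted p = 0.0199). Ank2 lost its call without WDd replicate 2 or any of the double null libraries (edgeR adjusted p 0.0629 to 0.0808). Of 21 other neuronal RNA-binding protein genes 4 were higher (Fmr1, Rbp6, bru2 and mbl) and 1 lower (Syp), with 2 lower without elav[null] replicate 3. The share higher was somewhat above the background of 14.3%, and the share lower was near that of 6.60%. Leaving out WDd replicate 2 or 3 or any 1 of the double null libraries gave 0 or 1 higher gene, and RLE factors gave 0. Syp lost its call without any 1 of the 6 libraries, with adjusted p of 0.0603 to 0.12 in edgeR. Syp stood at 1.04, 2.41 and 2.14 CPM in WDd, against 10.2, 9.12 and 10.97 CPM in the double null.

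**Figure D3:**
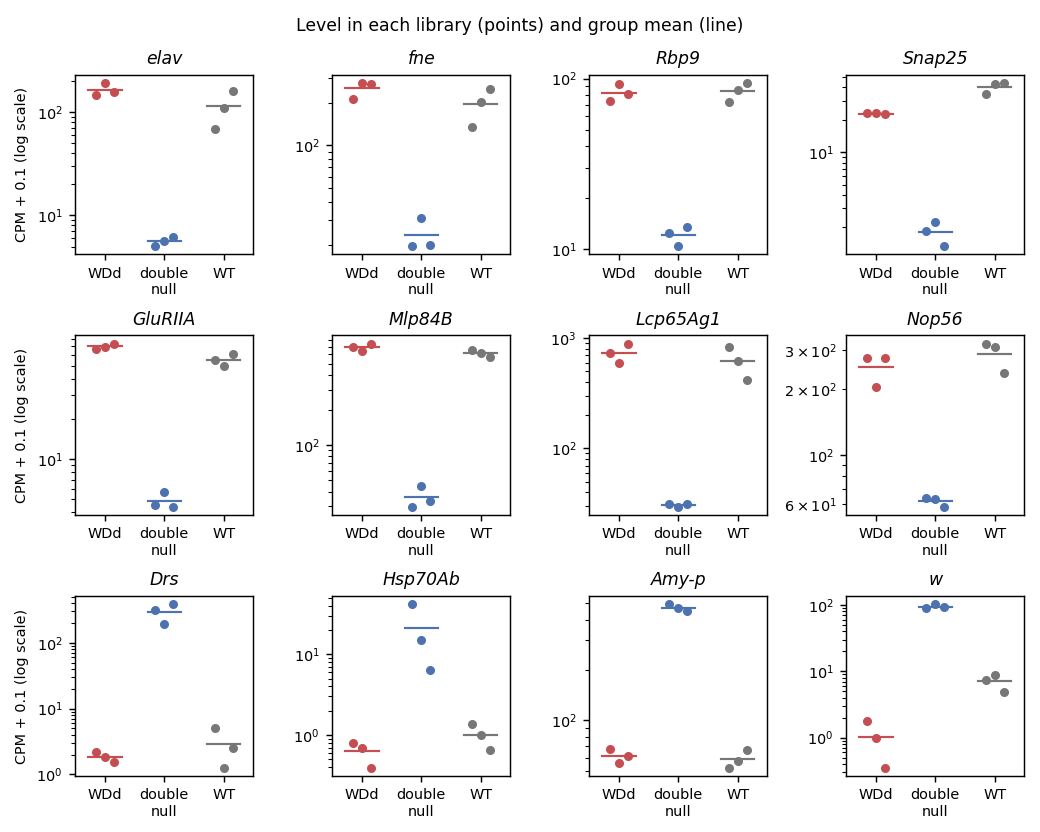
CPM with 0.1 added, on log axes, of 12 genes in each library of WDd, the double null and WT, with a line at the group mean. In the upper and middle rows WDd lies above the double null, as for Snap25 at 22.3 to 22.8 CPM in WDd against 1.25 to 2.13 CPM in the double null. In the lower row WDd lies below, as for Drs at 1.44 to 2.12 CPM in WDd against 195 to 384 CPM in the double null.

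Genes of neural stem cells were lower in WDd where they were called. Of 29 neuroblast and progenitor genes 10 were lower and none higher (1 higher without elav[null] replicate 3), with a median log2 fold change of −0.70. The count was 6 without WDd replicate 1 or any 1 of the double null libraries and 5 without WDd replicate 2 or 3. ase, a proneural factor of neuroblasts, had 5.52, 2.79 and 3.51 CPM in WDd, against 26.0, 32.6 and 26.2 CPM in the double null (difference −2.84 ± 0.56 SE, edgeR adjusted p = 0.00251). mira, which carries fate determinants to the daughter cell, had 21.5, 10.97 and 14.2 CPM in WDd, against 46.2, 57.1 and 45.1 CPM in the double null (difference −1.67 ± 0.35 SE, edgeR adjusted p = 0.00354). insc, which orients the stem cell spindle, had 12.4, 12.02 and 10.9 CPM in WDd, against 35.1, 41.6 and 41.9 CPM in the double null (difference −1.75 ± 0.28 SE, edgeR adjusted p = 0.000612). The Snail family factor sna had 11.4, 9.69 and 10.04 CPM in WDd, against 28.6, 26.1 and 36.7 CPM in the double null (difference −1.55 ± 0.27 SE, edgeR adjusted p = 0.00104). Each of the 4 was lower in all WDd libraries than in any double null library, and none lost its call when 1 library was left out. Of 11 genes of the Enhancer of split complex, targets of Notch, none was called in either direction. By mean level E(spl)mbeta-HLH was first, at 17.3, 10.6 and 14.6 CPM in WDd, against 10.99, 5.02 and 8.49 CPM in the double null. E(spl)m3-HLH was next, at 9.98, 5.43 and 6.96 CPM in WDd, against 7.61, 8.32 and 6.26 CPM in the double null. The groups overlap in both. The glial list of 19 genes gave 3 higher and 3 lower, with the share higher near the background of 14.3% and the share lower above that of 6.60%. repo, the defining factor of lateral glia, had 21.7, 23.0 and 22.7 CPM in WDd, against 33.1, 42.7 and 36.1 CPM in the double null (difference −0.73 ± 0.19 SE, edgeR adjusted p = 0.0163). It lost its call without WDd replicate 3 (edgeR adjusted p 0.0544) and without double null replicate 2 (0.0589). Among the 3 higher genes were bnb (difference 0.57 ± 0.15 SE, edgeR adjusted p = 0.0163) and wrapper (difference 1.37 ± 0.41 SE, edgeR adjusted p = 0.0291). wrapper lost its call without any 1 of the 6 libraries compared, and bnb without WDd replicate 1 or 3 or double null replicate 2 or 3. Without 1 library at a time 0 or 1 glial gene was higher, and 1 was lower without WDd replicate 2 and none without WDd replicate 3 or double null replicate 2. Without elav[null] replicate 3, 5 were lower.

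Muscle genes had the highest median of the lists. Of 37 genes of the sarcomere and of muscle 28 were higher in WDd and none lower (1 lower without elav[null] replicate 3), with a median log2 fold change of 3.51. The summed level of the list was 64700, 66170 and 68290 CPM in WDd, against 7180, 9131 and 7943 CPM in the double null. WT libraries had 62630, 56380 and 65460 CPM, near the WDd level. Mlp84B, a LIM protein of the Z disc, had 698, 642 and 744 CPM in WDd, against 29.6, 44.5 and 33.2 CPM in the double null (difference 4.28 ± 0.43 SE, edgeR adjusted p = 1.9e-05). The actin crosslinker of the Z disc, Actn, had 1175, 1311 and 1235 CPM in WDd, against 115, 132 and 105 CPM in the double null (difference 3.40 ± 0.38 SE, edgeR adjusted p = 4.12e-05). Zasp52, which joins it there, had 1047, 1040.0 and 1090.0 CPM in WDd, against 212, 237 and 218 CPM in the double null (difference 2.25 ± 0.22 SE, edgeR adjusted p = 1.41e-05). The groups were far apart in all 3 of these Z disc genes. Of the contractile proteins, chosen here after their values were seen, myosin heavy chain (Mhc) had a log2 fold change of 3.42 and the projectin gene bt of 4.22. Mhc stood at 6877, 9351 and 7585 CPM in WDd, against 467, 1264 and 499 CPM in the double null, with double null replicate 2 above the other double null libraries. The muscle regulator Mef2, which drives the contractile genes, had 216, 238 and 218 CPM in WDd, against 159.8, 166 and 169 CPM in the double null (difference 0.44 ± 0.15 SE, edgeR adjusted p = 0.059), a difference that did not pass the test. The integrin subunit gene if, of muscle attachment, had 368, 408 and 393 CPM in WDd, against 108, 129 and 112 CPM in the double null (difference 1.74 ± 0.19 SE, edgeR adjusted p = 4.25e-05).

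On the muscle side of the neuromuscular junction 6 of 12 genes were higher in WDd and 1 (gbb) lower. GluRIIA, a subunit of the glutamate receptors of that synapse, had 67.3, 69.2 and 73.4 CPM in WDd, against 4.44, 5.59 and 4.30 CPM in the double null (difference 3.87 ± 0.26 SE, edgeR adjusted p = 1.12e-06). Its WT mean was 55.4 CPM. The essential subunit gene GluRIIE had 32.8, 32.3 and 33.4 CPM in WDd, against 2.89, 2.98 and 2.75 CPM in the double null (difference 3.51 ± 0.34 SE, edgeR adjusted p = 1.49e-05). The alternative subunit gene GluRIIB had 11.4, 13.2 and 13.7 CPM in WDd, against 2.13, 4.83 and 1.82 CPM in the double null (difference 2.12 ± 0.39 SE, edgeR adjusted p = 0.00165). In GluRIIB double null replicate 2 lay above the other 2 double null libraries, while GluRIIA and GluRIIE were even across each group. gbb, a ligand that signals back to the motor neuron, was not called without WDd replicate 2 or 3 or double null replicate 1 or 2. Of 11 genes of tendon cells and muscle attachment 4 were higher and none lower (1 lower without elav[null] replicate 3). Tsp, the thrombospondin of tendon matrix, had 119, 109.8 and 128 CPM in WDd, against 54.8, 60.5 and 50.2 CPM in the double null (difference 1.11 ± 0.18 SE, edgeR adjusted p = 0.000581). kon, a transmembrane protein of muscle tips, had 53.6, 60.7 and 55.7 CPM in WDd, against 14.3, 17.9 and 17.2 CPM in the double null (difference 1.78 ± 0.38 SE, edgeR adjusted p = 0.00406).

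**Figure D4:**
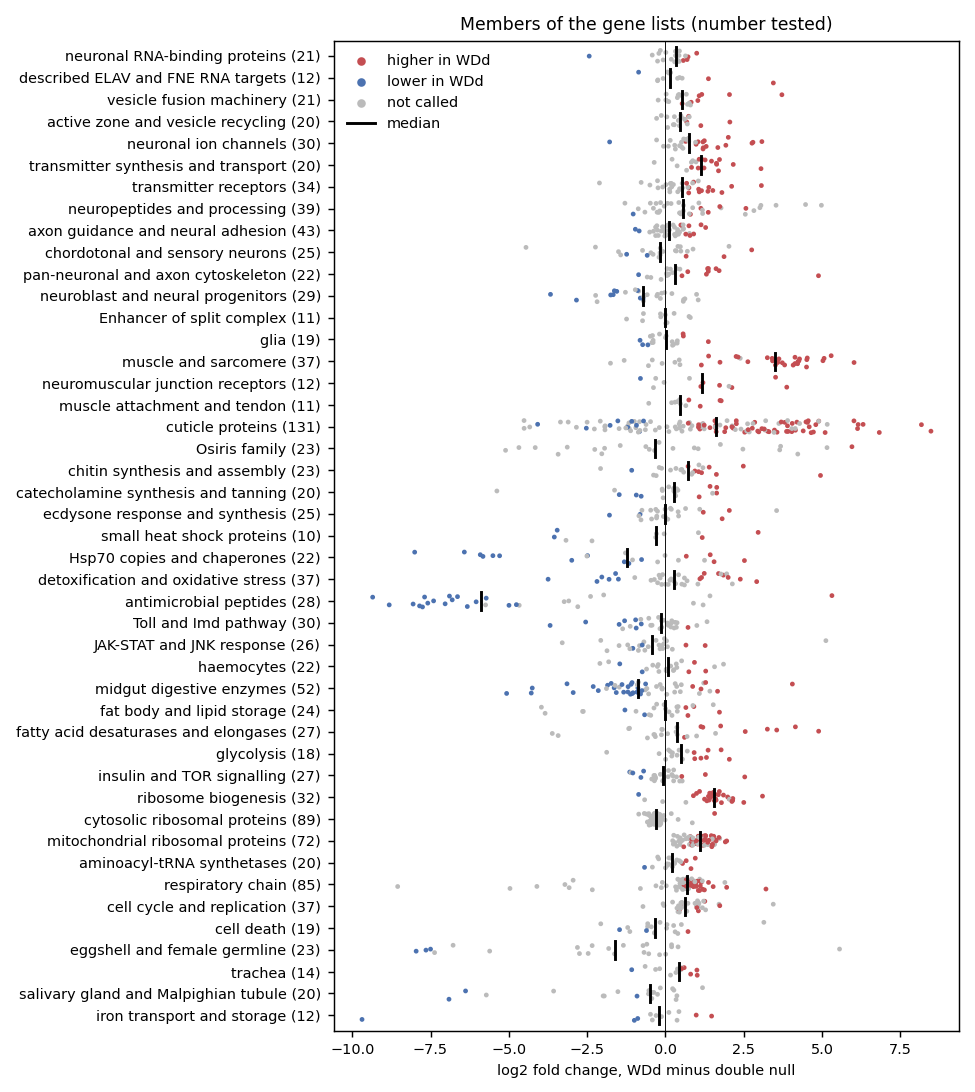
Log2 fold change of WDd minus the double null for each tested member of 45 gene lists, with the number tested in brackets and a black bar at the list's median. Red members were called higher, blue lower and grey not called. The bar of the muscle list lies at 3.51 and that of the antimicrobial peptides at −5.89.

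More cuticle genes were higher than lower in WDd. Of 131 cuticle protein genes 56 were higher in WDd and 9 lower, with a median log2 fold change of 1.61. Lcp65Ag1, a larval cuticle protein, had 736, 590.5 and 895 CPM in WDd, against 31.4, 29.5 and 31.5 CPM in the double null (difference 4.59 ± 0.33 SE, edgeR adjusted p = 2.02e-06). Its WT mean was 625 CPM. The chitin-binding Cpr78Cc had 338, 254 and 368 CPM in WDd, against 28.9, 28.4 and 28.7 CPM in the double null (difference 3.48 ± 0.23 SE, edgeR adjusted p = 9.48e-07). Cpr78Cb had 103.7, 83.2 and 113 CPM in WDd, against 7.70, 7.28 and 8.19 CPM in the double null (difference 3.69 ± 0.23 SE, edgeR adjusted p = 8.89e-07). Cpr62Bc had 174, 167 and 212 CPM in WDd, against 10.9, 17.0 and 9.94 CPM in the double null (difference 3.86 ± 0.29 SE, edgeR adjusted p = 2.34e-06). In each all 3 double null libraries lay far under WDd, with replicate 2 the highest of them for Cpr62Bc. The Tweedle family of cuticle proteins held the highest fold changes of named genes besides Setd3. TwdlB had 197, 268 and 311 CPM in WDd, against 0.995, 0.140 and 1.11 CPM in the double null (difference 8.47 ± 1.02 SE, edgeR adjusted p = 7.18e-05). TwdlM had 424, 526 and 658 CPM in WDd, against 2.18, 0.967 and 2.48 CPM in the double null (difference 8.17 ± 0.95 SE, edgeR adjusted p = 5.74e-05). Reads of related family members could be shared between such genes. 3 further Tweedle genes, TwdlH, TwdlN and TwdlO, were called lower, at log2 fold changes of −1.77 for TwdlH, −0.93 for TwdlN and −2.53 for TwdlO. TwdlN was not called without any 1 of the libraries except double null replicate 3 (edgeR adjusted p 0.0536 to 0.0776). Ccp84Ae was of that range too, at 25, 35.3 and 44.5 CPM in WDd, against 0.395, 0 and 0.571 CPM in the double null. Cpr67Fa1 stood at 24.5, 20.5 and 27.0 CPM in WDd, against 0.316, 0 and 0.749 CPM in the double null. Both had under 1 CPM in every double null library.

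Of 23 genes of chitin synthesis and assembly 8 were higher and 1 lower (median 0.72). The moulting chitinase gene Cht5 had 184, 128 and 175 CPM in WDd, against 8.22, 1.06 and 6.57 CPM in the double null (difference 4.95 ± 0.76 SE, edgeR adjusted p = 0.000412). The chitin deacetylase gene Cda4 had 154, 151 and 165 CPM in WDd, against 84.6, 90.5 and 70.1 CPM in the double null (difference 0.94 ± 0.16 SE, edgeR adjusted p = 0.000757). ckd, needed for cuticle assembly, had 20.9, 17.7 and 24.6 CPM in WDd, against 7.12, 8.12 and 5.25 CPM in the double null (difference 1.62 ± 0.25 SE, edgeR adjusted p = 0.00044). The chitin synthase gene kkv had 184, 239 and 199 CPM in WDd, against 242, 224 and 212 CPM in the double null (difference −0.12 ± 0.22 SE, edgeR adjusted p = 0.752), with groups that overlap. Of 20 genes of tanning and catecholamine synthesis 4 were higher and 3 lower, and 1 was lower without WDd replicate 3. e, which makes the sclerotizing agent N-beta-alanyldopamine, had 18.4, 24.3 and 23.4 CPM in WDd, against 5.87, 6.27 and 9.13 CPM in the double null (difference 1.64 ± 0.27 SE, edgeR adjusted p = 0.000728). Ddc, which makes dopamine, had 87.6, 68.2 and 87.6 CPM in WDd, against 24.6, 35.1 and 18.7 CPM in the double null (difference 1.63 ± 0.33 SE, edgeR adjusted p = 0.00271). The pigment gene speck had 103, 103 and 114 CPM in WDd, against 178, 192 and 176 CPM in the double null (difference −0.78 ± 0.15 SE, edgeR adjusted p = 0.00185). Osiris genes, 23 of which were tested, had 1 call, Osi15, at 1.28, 38.0 and 57.8 CPM in WDd, against 0.253, 0.548 and 0.767 CPM in the double null, and WDd replicate 1 lay far under the other WDd libraries there. Its call was lost without WDd replicate 2 or 3 or any 1 of the double null libraries, with adjusted p of 0.055 to 0.109 in edgeR. Without elav[null] replicate 3, 2 Osiris genes were higher. The summed level of the Osiris list was 17.6, 91.2 and 173.9 CPM in WDd, against 17.3, 19.1 and 18.2 CPM in the double null. Of 25 genes of ecdysone synthesis and response 3 were higher and 2 lower, shares near the background of 14.3% and 6.60%, and 1 was lower without WDd replicate 3. Eip74EF, an early ecdysone-induced factor, had 42.5, 84.0 and 73.8 CPM in WDd, against 18.3, 17.9 and 21.0 CPM in the double null (difference 1.81 ± 0.33 SE, edgeR adjusted p = 0.00138). Cyp18a1, which inactivates ecdysteroids, had 42.5, 44.9 and 45.0 CPM in WDd, against 91.4, 65.9 and 75.2 CPM in the double null (difference −0.81 ± 0.19 SE, edgeR adjusted p = 0.00708).

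Genes for assembly of ribosomes were mostly higher in WDd. Of 32 genes of ribosome biogenesis 27 were higher in WDd and 1 lower (Non1; 2 lower without elav[null] replicate 3), with a median log2 fold change of 1.55. Nop56 and nop5 encode core proteins of the snoRNA complexes that methylate rRNA, and Nop56 had 276, 204 and 278 CPM in WDd, against 63.6, 63.0 and 58.1 CPM in the double null (difference 2.04 ± 0.19 SE, edgeR adjusted p = 1.01e-05). The WT mean of Nop56 was 290 CPM. nop5 had 388, 291 and 362 CPM in WDd, against 84.1, 77.8 and 73.6 CPM in the double null (difference 2.14 ± 0.21 SE, edgeR adjusted p = 1.85e-05). The nucleolar phosphoprotein gene Nopp140 had 187, 193 and 205 CPM in WDd, against 59.7, 72.5 and 60.6 CPM in the double null (difference 1.601 ± 0.15 SE, edgeR adjusted p = 1.23e-05). Mybbp1A, another nucleolar protein, had 45.4, 40.2 and 51.1 CPM in WDd, against 12.4, 9.32 and 12.8 CPM in the double null (difference 1.99 ± 0.20 SE, edgeR adjusted p = 2.28e-05). In all 4 genes every WDd library lay at more than 2 times the highest double null library. Of 89 cytosolic ribosomal protein genes 1 was higher, RpLP0-like, which despite its name acts in assembly of the large subunit, and none was lower. With DESeq2 8 of the 89 were lower, with RLE factors 2, and without elav[null] replicate 3, 1. RpLP0-like had 71.5, 51.0 and 70.3 CPM in WDd, against 19.2, 24.2 and 21.6 CPM in the double null (difference 1.57 ± 0.24 SE, edgeR adjusted p = 0.000375).

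Genes of mitochondrial ribosomal proteins followed, with 42 of 72 higher in WDd and none lower (median 1.10). The count was 21 and 25 without WDd replicates 1 and 3, and 27 and 24 without double null replicates 2 and 3. mRpL20 had 29.8, 17.1 and 22.3 CPM in WDd, against 6.08, 5.55 and 6.76 CPM in the double null (difference 1.91 ± 0.33 SE, edgeR adjusted p = 0.000922). mRpL14 had 24.2, 18.1 and 19.5 CPM in WDd, against 6.88, 8.24 and 5.69 CPM in the double null (difference 1.57 ± 0.28 SE, edgeR adjusted p = 0.00125). mRpS5 had 66.5, 60.3 and 64.0 CPM in WDd, against 33.0, 39.3 and 34.2 CPM in the double null (difference 0.84 ± 0.15 SE, edgeR adjusted p = 0.00109). These examples of both subunits had no overlap between the groups. Of 85 nuclear genes of the respiratory chain 31 were higher and none lower (median 0.68). That count was 10 and 11 without WDd replicates 1 and 3, and 14, 11 and 14 without double null replicates 1, 2 and 3. Without elav[null] replicate 3, 2 were lower. Cyt-c-p, the somatic cytochrome c, had 958, 594 and 920.1 CPM in WDd, against 90.1, 87.7 and 89.9 CPM in the double null (difference 3.21 ± 0.35 SE, edgeR adjusted p = 3.66e-05). ND-AGGG, a subunit of complex I, had 69.8, 52.0 and 72.4 CPM in WDd, against 16.8, 19.1 and 14.3 CPM in the double null (difference 1.95 ± 0.23 SE, edgeR adjusted p = 6.66e-05). UQCR-11, of complex III, had 106, 74.8 and 99.9 CPM in WDd, against 31.1, 28.8 and 37.8 CPM in the double null (difference 1.52 ± 0.28 SE, edgeR adjusted p = 0.00156). Of the 13 protein genes of the mitochondrial genome itself none was called. COX1 had 13190.0, 10720.0 and 14000.0 CPM in WDd, against 10650.0, 12420.0 and 9222 CPM in the double null. COX3 had 9577, 7319 and 9613 CPM in WDd, against 8229, 7949 and 7963 CPM in the double null, and the groups overlap in both.

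In metabolism 7 of 18 glycolytic genes were higher in WDd and none lower. Ldh, lactate dehydrogenase, had 436, 373 and 452 CPM in WDd, against 102, 103 and 102 CPM in the double null (difference 2.04 ± 0.29 SE, edgeR adjusted p = 0.000231). Gpdh1, which regenerates NAD in flight muscle and elsewhere, had 954, 794 and 1057 CPM in WDd, against 300.2, 265 and 254 CPM in the double null (difference 1.78 ± 0.17 SE, edgeR adjusted p = 1.35e-05). The rate-limiting enzyme gene Pfk had 429, 446 and 437 CPM in WDd, against 191, 187 and 151 CPM in the double null (difference 1.31 ± 0.18 SE, edgeR adjusted p = 0.000177). All 3 double null libraries lay below 0.5 of the lowest WDd library for these genes. Of 27 fatty acid desaturase and elongase genes 9 were higher and none lower, with 1 lower under RLE factors, 2 with DESeq2 and 1 without elav[null] replicate 3. The elongase family gene CG33110 had 139.9, 170.0 and 149 CPM in WDd, against 4.80, 5.22 and 5.48 CPM in the double null (difference 4.89 ± 0.34 SE, edgeR adjusted p = 1.57e-06). CG5326 had 303, 286 and 317 CPM in WDd, against 17.4, 16.0 and 17.8 CPM in the double null (difference 4.15 ± 0.27 SE, edgeR adjusted p = 9.28e-07). The desaturase family gene CG8630 had 412, 434 and 454 CPM in WDd, against 37.4, 37.9 and 35.7 CPM in the double null (difference 3.55 ± 0.23 SE, edgeR adjusted p = 9.48e-07). bond, an elongase, had 92.7, 100.5 and 104.4 CPM in WDd, against 16.1, 20.0 and 14.8 CPM in the double null (difference 2.55 ± 0.22 SE, edgeR adjusted p = 7.64e-06). Such enzymes make the long chains of surface hydrocarbons, and in all 4 the double null stood well under WDd. Among 24 genes of the fat body and of lipid storage 4 were higher and 2 lower, shares near the background of 14.3% and 6.60%. There were 2 higher without WDd replicate 2 or double null replicate 3, and 1 lower without any 1 library except double null replicate 3. The lipid droplet protein gene Lsd-1 had 53.05, 48.4 and 66.3 CPM in WDd, against 18.6, 15.5 and 16.7 CPM in the double null (difference 1.72 ± 0.29 SE, edgeR adjusted p = 0.000805). bmm, the lipase of stored fat, went the other way, with 129.7, 143 and 109 CPM in WDd, against 344, 367 and 226 CPM in the double null (difference −1.29 ± 0.21 SE, edgeR adjusted p = 0.000563). The larval serum protein gene Lsp1alpha, a product of the older fat body, had under 2 CPM in every library of both groups.

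Genes of nutrient transport and growth signalling went in both directions. Of 27 genes of insulin and TOR signalling 3 were higher and 4 lower, with 2 lower without WDd replicate 1 or 3. The share higher was near the background of 14.3% and the share lower above that of 6.60%, with a median log2 fold change of −0.09. slif, an amino acid transporter, had 89.03, 92.6 and 102 CPM in WDd, against 16.1, 15.2 and 17.7 CPM in the double null (difference 2.53 ± 0.17 SE, edgeR adjusted p = 9.48e-07). mnd, another, had 109, 90.5 and 104.5 CPM in WDd, against 43.7, 47.3 and 34.8 CPM in the double null (difference 1.27 ± 0.17 SE, edgeR adjusted p = 0.000126). Rheb, the activator of TOR, had 117, 105 and 108 CPM in WDd, against 199, 194 and 174 CPM in the double null (difference −0.78 ± 0.15 SE, edgeR adjusted p = 0.00172). Thor, the translation repressor 4E-BP, which is induced under stress, had 535, 426 and 268 CPM in WDd, against 1056, 759 and 718 CPM in the double null (difference −1.04 ± 0.24 SE, edgeR adjusted p = 0.00705). slif and mnd were thus higher and Rheb and Thor lower in WDd, which does not describe the list as a whole. Of 20 aminoacyl-tRNA synthetase genes 4 were higher and 1 lower, and without WDd replicate 3 these were 2 and none, with 2 higher without double null replicate 3. With all libraries the share higher was somewhat above the background of 14.3% and the share lower near that of 6.60%. Of 37 genes of the cell cycle and replication 6 were higher, a share near the background of 14.3%, and none lower (1 lower without elav[null] replicate 3). When 1 library was left out 1 to 3 genes were higher, 3 without WDd replicate 1 or double null replicate 1, 2 without WDd replicate 3 or double null replicate 3, and 1 without WDd replicate 2 or double null replicate 2. His2Av, a histone variant, had 79.2, 78.7 and 63.5 CPM in WDd, against 37.4, 32.9 and 36.6 CPM in the double null (difference 1.05 ± 0.24 SE, edgeR adjusted p = 0.00673). The summed level of the cell cycle list was 794, 1371 and 709.5 CPM in WDd, against 607.3, 601.3 and 574.3 CPM in the double null, with WDd replicate 2 above the rest.

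Antimicrobial peptide genes had the lowest median of the lists. Of 36 antimicrobial peptide genes 28 passed the filter on low counts, and 17 of these were lower in WDd and 1 higher (Drsl2, which was not called without double null replicate 1). The median log2 fold change was −5.89. Summed over the list, the level was 35.1, 18.7 and 19.7 CPM in WDd, against 2344, 1434 and 2673 CPM in the double null. Drs, which encodes the antifungal drosomycin, had 2.12, 1.74 and 1.44 CPM in WDd, against 318, 195 and 384 CPM in the double null (difference −7.40 ± 0.62 SE, edgeR adjusted p = 5.13e-06). Bbd, of the Bomanin family, had 1.76, 0.646 and 1.06 CPM in WDd, against 252, 178 and 285 CPM in the double null (difference −7.69 ± 0.64 SE, edgeR adjusted p = 5.1e-06). Its relative BomBc1 had 1.56, 0.462 and 1.01 CPM in WDd, against 130.4, 91.3 and 139 CPM in the double null (difference −6.90 ± 0.56 SE, edgeR adjusted p = 4.33e-06). AttB, an attacin against bacteria, had 1.75, 0.883 and 0.620 CPM in WDd, against 322, 216 and 163 CPM in the double null (difference −7.76 ± 0.63 SE, edgeR adjusted p = 4.61e-06). Both the Toll-dependent peptides, such as drosomycin and the Bomanins, and the attacins were near 0 in WDd, and the WT means were 2.84 CPM for Drs and 3.54 CPM for AttB. Copies such as AttA and AttB and the Bomanins are similar in sequence, so their reads may be shared between them. Tsf1, the iron-binding transferrin of the haemolymph, had 0.216, 0.105 and 0 CPM in WDd, against 92.0, 54.8 and 122 CPM in the double null (difference −9.69 ± 0.93 SE, edgeR adjusted p = 1.42e-05). The ferritin heavy chain gene Fer1HCH had 530.0, 399.5 and 431 CPM in WDd, against 943, 923 and 845 CPM in the double null (difference −0.9951 ± 0.16 SE, edgeR adjusted p = 0.000678), a much smaller difference in the same direction.

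Of 30 genes of the Toll and Imd pathways 7 were lower and 1 higher. SPE, the protease that cleaves the Toll ligand, had 10.9, 7.99 and 12.5 CPM in WDd, against 162, 108 and 132 CPM in the double null (difference −3.68 ± 0.49 SE, edgeR adjusted p = 0.000154). nec, a serpin that restrains this cascade, had 33.9, 25.8 and 30.4 CPM in WDd, against 100.5, 81.1 and 69.7 CPM in the double null (difference −1.48 ± 0.28 SE, edgeR adjusted p = 0.00196). PGRP-SD, a receptor for bacterial cell wall, had 0.952, 0.330 and 0.846 CPM in WDd, against 3.87, 3.74 and 4.85 CPM in the double null (difference −2.55 ± 0.60 SE, edgeR adjusted p = 0.0076). Protease and inhibitor were thus both lower in WDd. The caspase gene Dredd, of the Imd branch, had 32.6, 32.0 and 38.0 CPM in WDd, against 21.4, 21.2 and 19.7 CPM in the double null (difference 0.72 ± 0.17 SE, edgeR adjusted p = 0.00733), and was not called without WDd replicate 3 (edgeR adjusted p 0.0614). Of 22 haemocyte genes 3 were higher and 2 lower, shares near the background of 14.3% and 6.60%. Sr-CI, a scavenger receptor of phagocytes, had 23.6, 25.7 and 25.8 CPM in WDd, against 74.3, 74.9 and 57.1 CPM in the double null (difference −1.46 ± 0.19 SE, edgeR adjusted p = 0.000118). PPO2, the prophenoloxidase of crystal cells, had 18.1, 24.1 and 31.4 CPM in WDd, against 8.26, 13.2 and 8.72 CPM in the double null (difference 1.28 ± 0.30 SE, edgeR adjusted p = 0.00746). 2 markers of plasmatocytes, Hml and Pxn, did not pass the test, with log2 fold changes of −0.41 for Hml and 0.02 for Pxn. Another, NimC1, was called lower (difference −0.74 ± 0.19 SE, edgeR adjusted p = 0.0118). It lost its call without WDd replicate 2 or double null replicate 1. The haemocyte list had 1 higher gene without double null replicate 1 or 3 and 1 lower without WDd replicate 2 or double null replicate 1. In the list of JAK-STAT and JNK response genes wgn, a TNF receptor, had 92.1, 81.6 and 83.9 CPM in WDd, against 30.9, 41.4 and 34.7 CPM in the double null (difference 1.27 ± 0.19 SE, edgeR adjusted p = 0.000349), and it was 1 of 2 higher genes of 26 tested, with 2 lower (Thor and puc). It was the sole higher gene without any 1 library except WDd replicate 2. In that list 1 gene was lower without WDd replicate 3 or double null replicate 1 or 2, and 5 were lower without elav[null] replicate 3. With all libraries the share of that list called higher was below the background of 14.3%, and the share lower was near that of 6.60%.

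Most called heat shock genes were lower in WDd, and they varied among the double null libraries. Of 22 genes for Hsp70 copies and other chaperones 11 were lower and 4 higher, with a median log2 fold change of −1.22. Hsp70Ab had 0.692, 0.593 and 0.296 CPM in WDd, against 41.2, 14.8 and 6.30 CPM in the double null (difference −5.29 ± 0.68 SE, edgeR adjusted p = 0.000109). Hsp70Bc had 0.505, 0.0659 and 0.197 CPM in WDd, against 27.6, 10.8 and 5.14 CPM in the double null (difference −5.83 ± 0.87 SE, edgeR adjusted p = 0.000361). Both were highest in double null replicate 1 and lowest in replicate 3, and reads of the near-identical Hsp70 copies may be shared between them. DnaJ-1, the Hsp40 partner, had 89.1, 83.5 and 55.8 CPM in WDd, against 709, 351 and 221 CPM in the double null (difference −2.49 ± 0.39 SE, edgeR adjusted p = 0.000461). The 4 higher chaperones were Droj2, Hsc70-1, Hsc70-5 and Hsp60A, the last 2 of mitochondria, at log2 fold changes of 0.66 for Droj2, 2.52 for Hsc70-1, 1.43 for Hsc70-5 and 1.55 for Hsp60A. Among 10 small heat shock protein genes 2 were lower and 2 higher. Hsp26 had 36.7, 58.2 and 7.19 CPM in WDd, against 712, 239 and 170.0 CPM in the double null (difference −3.46 ± 0.67 SE, edgeR adjusted p = 0.00218). Hsp23 had 15.8, 6.82 and 6.25 CPM in WDd, against 194, 90.1 and 53.4 CPM in the double null (difference −3.55 ± 0.51 SE, edgeR adjusted p = 0.00024). l(2)efl, a small heat shock protein gene of muscle among other tissues, went the other way with 144, 141 and 117 CPM in WDd, against 20.8, 18.3 and 12.7 CPM in the double null (difference 2.96 ± 0.61 SE, edgeR adjusted p = 0.00326). The family member CG14207 did so too, with 474, 364 and 440.2 CPM in WDd, against 178, 216 and 172 CPM in the double null (difference 1.17 ± 0.21 SE, edgeR adjusted p = 0.00115).

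Of 37 genes of detoxification and oxidative stress 8 were higher and 6 lower. Cyp6g1, a cytochrome P450 known from insecticide resistance, had 10.8, 16.4 and 11.8 CPM in WDd, against 195, 183 and 146 CPM in the double null (difference −3.75 ± 0.25 SE, edgeR adjusted p = 1.12e-06). Cat, catalase, had 116, 112 and 123 CPM in WDd, against 372, 333 and 290.2 CPM in the double null (difference −1.503 ± 0.15 SE, edgeR adjusted p = 2.19e-05). The P450 gene Cyp6a2 had 233, 176 and 209 CPM in WDd, against 29.2, 24.3 and 28.7 CPM in the double null (difference 2.91 ± 0.22 SE, edgeR adjusted p = 2.95e-06). The glutathione transferase gene GstD7 had 47.4, 27.3 and 37.6 CPM in WDd, against 9.71, 7.06 and 11.3 CPM in the double null (difference 2.001 ± 0.24 SE, edgeR adjusted p = 6.69e-05). Both directions thus occurred among enzymes of the same kind. Of 19 cell death genes 2 were lower, a share above the background of 6.60%, and 1 was higher, a share below that of 14.3%. There was 1 lower without WDd replicate 2 or 3 or double null replicate 1 or 3, and 2 higher without elav[null] replicate 3. The effector caspase gene Decay had 36.4, 23.9 and 33.4 CPM in WDd, against 91.6, 90.7 and 76.4 CPM in the double null (difference −1.47 ± 0.20 SE, edgeR adjusted p = 0.00015), and the remaining call in that direction, Strica, was lost without these 4 libraries.

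Digestive enzymes of the midgut were mostly lower in WDd among those called. Of 52 genes tested 25 were lower and 5 higher, with a median log2 fold change of −0.87, and 3 were higher without WDd replicate 1 or 3 or any 1 of the double null libraries. The summed level was 10940, 8857 and 10390 CPM in WDd, against 20590, 17110 and 19680 CPM in the double null. Amy-p, an amylase, had 67.5, 55.2 and 60.8 CPM in WDd, against 492, 472 and 449.7 CPM in the double null (difference −2.95 ± 0.16 SE, edgeR adjusted p = 3.22e-07). The neighbouring copy Amy-d had 16.3, 12.4 and 13.5 CPM in WDd, against 136, 121 and 117 CPM in the double null (difference −3.14 ± 0.26 SE, edgeR adjusted p = 4.61e-06), between which reads may be shared. Mal-B2, a maltase, had 9.52, 10.2 and 7.65 CPM in WDd, against 53.3, 38.7 and 43.3 CPM in the double null (difference −2.31 ± 0.20 SE, edgeR adjusted p = 6.8e-06). Lip3, a lipase, had 2.34, 1.2 and 2.25 CPM in WDd, against 71.99, 57.9 and 64.9 CPM in the double null (difference −5.07 ± 0.46 SE, edgeR adjusted p = 9.47e-06). Carbohydrate and fat digestion were both represented among the lower genes, and the sugar-regulated target gene tobi and the amylase relative Amyrel had log2 fold changes of −4.29 for tobi and −4.25 for Amyrel. Mal-A5, in contrast, was higher at 4.05. Among 20 genes of salivary glands and Malpighian tubules 3 were lower, and 1 without WDd replicate 1 or 3. Of 14 tracheal genes 5 were higher and 1 lower, with 2 higher without any 1 of the libraries except WDd replicate 2. bnl, the FGF that guides tracheal branches, had 21.4, 24.3 and 18.9 CPM in WDd, against 10.96, 8.26 and 12.8 CPM in the double null (difference 1.01 ± 0.24 SE, edgeR adjusted p = 0.00717). Gasp, a chitin-binding protein of the airway matrix, had 156, 224 and 224 CPM in WDd, against 454, 459.8 and 362 CPM in the double null (difference −1.08 ± 0.23 SE, edgeR adjusted p = 0.00451).

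Chromosome 4, looked at after the values were seen, stood apart from the X and the arms of chromosomes 2 and 3. Of 100 of its genes tested 49 were higher in WDd and none lower, against the background of 14.3% higher and 6.60% lower. The median log2 fold change was 0.71, and on the X and the arms of chromosomes 2 and 3 it lay between −0.03 and 0.05. On the Y, with 22 genes tested, it was −2.09, with 0 genes higher and 2 lower. Classes with few calls had low medians as well, at −1.13 for lncRNAs and −1.36 for Or genes. Whether the Y median differs from such shifts was not tested, and levels of the Y genes are not given here. Among protein-coding genes 48 of 79 on chromosome 4 were higher (60.8%), against 1932 of 12361 elsewhere (15.6%). Leaving out 1 library at a time gave 36 to 45 higher genes, and 48 of 99 were higher without the genes of the muscle lists. Set against the WT mean, the median gene of at least 5 CPM lay at 0.16, 0.23 and 0.31 (log2) in the WDd libraries and at −0.56, −0.29 and −0.55 in the double null. On the X chromosome the same values were −0.067, 0.039 and −0.032 in WDd and −0.16, −0.14 and −0.23 in the double null. CaMKII, the calcium-dependent kinase of synapses, had 527, 529.8 and 628 CPM in WDd, against 209.6, 269.6 and 215 CPM in the double null (difference 1.28 ± 0.20 SE, edgeR adjusted p = 0.000466). The translation factor gene eIF4G1 had 544, 619 and 613 CPM in WDd, against 276, 315 and 245 CPM in the double null (difference 1.09 ± 0.17 SE, edgeR adjusted p = 0.00045). Sox102F, a transcription factor, had 17.4, 15.4 and 18.1 CPM in WDd, against 5.68, 5.88 and 6.35 CPM in the double null (difference 1.505 ± 0.21 SE, edgeR adjusted p = 0.000171). These examples were chosen after their values were seen, and each was higher in all WDd libraries than in any double null library. Pof, whose product coats chromosome 4, had 6.46, 7.41 and 6.99 CPM in WDd, against 5.75, 6.43 and 7.07 CPM in the double null (difference 0.12 ± 0.41 SE, edgeR adjusted p = 0.883), and its groups overlap.

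**Figure D5:**
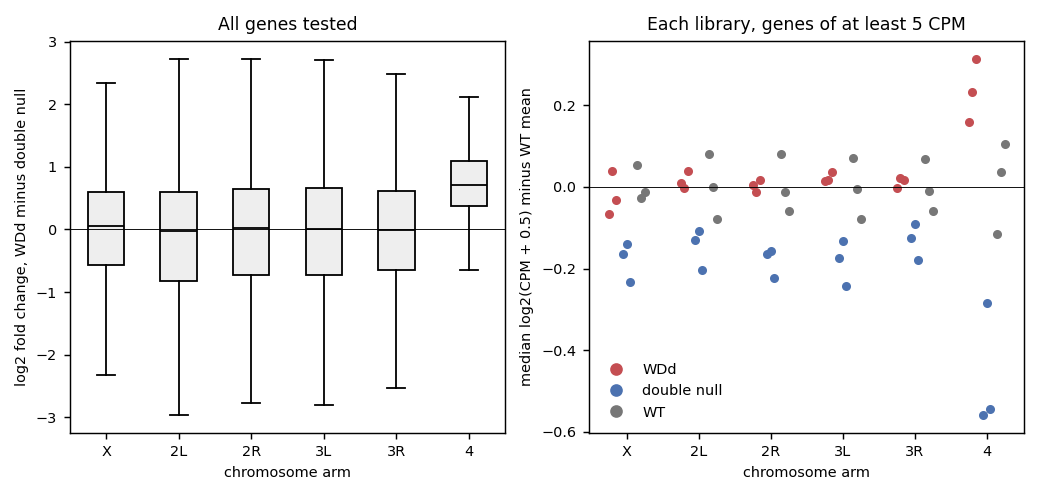
Left, box plots of the log2 fold change of WDd minus the double null over all genes tested on each chromosome arm (box, quartiles; line, median; whiskers to 1.5 times the box). Right, the median difference of each library from the WT mean in log2(CPM + 0.5), over genes of at least 5 CPM. Chromosome 4 has its median at 0.71 on the left, and its WDd and double null libraries lie apart on the right.

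On the X chromosome, where both genotypes carry their mutations, 285 of 2198 genes were higher in WDd and 122 lower (12.97% and 5.55%), close to the background of 14.3% and 6.60%. Single X-linked genes stood out. Setd3 (X: 6958032 to 6968750), whose mammalian counterpart methylates actin, was the only gene with at least 5 CPM in every library of one group and no count in the other. It had 19.7, 17.3 and 18.8 CPM in WDd and no count in the double null, so it was at least 1271-fold higher in WDd, against a limit of 3 counts over the double null libraries. Its span overlaps that of CG14431. w (X: 2790599 to 2796466), the transporter of eye pigment precursors, had 1.67, 0.883 and 0.254 CPM in WDd, against 89.2, 102 and 92.4 CPM in the double null (difference −6.66 ± 0.9954 SE, edgeR adjusted p = 0.000352), with a WT mean of 6.98 CPM. In a run of 7 adjacent genes beyond w, from CG12498 to CG3588 (X: 2809881 to 2924426), WDd libraries had almost no reads. This run was looked at after the values were seen. The 7 genes summed to 143, 183 and 0 counts in WDd, against 95673, 143328 and 68178 counts in the double null. The WT libraries had 76287, 42037 and 60913 counts. Most of the counts came from CG3588, with 90198, 135242 and 62931 in the double null. The 5 genes with no count in any WDd library were low elsewhere too, at no more than 1.5 CPM in any double null library. The lack of reads in WDd thus rests mainly on CG3588 and CG14419. CG3588 had 1.96, 2.06 and 0 CPM in WDd, against 1424, 1576 and 1123 CPM in the double null (difference −9.999 ± 1.003 SE, edgeR adjusted p = 2.01e-05). CG14419 had 0.101, 0.356 and 0 CPM in WDd, against 83.2, 92.9 and 88.6 CPM in the double null (difference −9.13 ± 0.65 SE, edgeR adjusted p = 1.66e-06). Both were also lower in WDd than in WT, at edgeR adjusted p of 0.00223 for CG3588 and 3.58e-05 for CG14419. Beyond the run CG32793, whose span overlaps that of kirre, was lower as well, with 0.303, 0.620 and 0.381 CPM in WDd, against 4.04, 8.09 and 4.32 CPM in the double null. The span of w overlaps that of kirre too, so the run between w and CG32793 lies within kirre. Reads there cannot be assigned with certainty, and the level of kirre is not given here. CG3603 further on had 10.3, 6.32 and 10.5 CPM in WDd, against 8.94, 6.44 and 9.88 CPM in the double null, with groups that overlap. No label describes this stretch of the chromosome.

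Of dosage compensation and sex genes, 16 tested, 3 were higher and 1 lower. The share higher was somewhat above the background of 14.3%, and the share lower was near that of 6.60%. roX1, a noncoding RNA of the male X chromosome complex, had 709.5, 739 and 756 CPM in WDd, against 861, 733 and 1039 CPM in the double null, a difference that did not pass the test, where the WT mean was 269 CPM. roX2, its partner, had 19.5, 20.8 and 25.4 CPM in WDd, against 39.5, 34.2 and 46.4 CPM in the double null (difference −0.87 ± 0.24 SE, edgeR adjusted p = 0.02), and lost the call without WDd replicate 1 or 2 or double null replicate 1 or 3 (edgeR adjusted p 0.0528 to 0.0955). The WT mean of roX2 was 7.12 CPM. The share of male embryos in each library was not tested. Sxl, the female switch gene, had 198, 219.9 and 216 CPM in WDd, against 159, 219 and 153 CPM in the double null, with groups that overlap. Of the 3 higher genes, mle, Clamp and tra2, 1 was called without WDd replicate 1 and 0 without any other 1 of the libraries. The list of eggshell and female germline genes gave 3 lower calls of 23, the eggshell genes Vm26Ab, Cp19 and Cp36. These had under 3 CPM in each of the 6 libraries compared. All 3 lost the call without any 1 of the WDd libraries or without double null replicate 2 (edgeR adjusted p 0.0509 to 0.121). The summed level of that list was 30.1, 72.6 and 33.0 CPM in WDd, against 61.4, 52.7 and 64.5 CPM in the double null. Of 26 testis and accessory gland genes 8 passed the filter and none was called.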

How the data were processed

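Read counts per gene of 12 libraries, 3 each of 4 genotypes, were deposited by the authors as 1 table of 17561 genes. The labels describe Trizol extraction, poly(A) selection and paired-end sequencing. The submitters' processing notes name Trim Galore 0.6.7, STAR 2.7.11a, featureCounts 2.0.8, DESeq2 1.40.2 and the build dm6. Whether counting used strand, and how reads that map to several places were treated, is not given in the sources used here. Gene names and coordinates came from RefSeq (Release 6, the dm6 build), to which all 17561 IDs matched.

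Counts were fitted with edgeR 4.0.16 in R 4.3.3 (quasi-likelihood test, TMM scaling, genes filtered with filterByExpr, group as the only term). All 12 libraries shared 1 estimate of spread, and p-values were adjusted by Benjamini-Hochberg over the 14031 genes tested. Log2 fold changes are WDd minus the double null, called at an adjusted p under 0.05, and CPM uses the scaled library sizes. The fit was checked on simulated data with known changes. A count of 3 corresponds to 0.0350 to 0.0535 CPM in the 6 libraries compared, and such floors cover counting error only.

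52 gene lists were used. The members, lists and tests were chosen with earlier results of these data known. Genes named are, beside a few fixed ones, the 12 called genes with the largest fold change in each direction among those with a symbol, a mean of at least 5 CPM in the higher group and groups that do not overlap, and up to 4 called genes a list by smallest p (2 of the highest level where none was called). A gene given outside this rule was chosen after its values were seen. Of 201 genes so named, 84 (41.8%) overlap another annotated gene, where reads cannot be assigned with certainty. Alternatives were RLE factors, library totals, DESeq2 1.42.0, no filter, robust dispersion, only the 6 libraries, a replicate block, leaving out libraries and a minimum of 2-fold.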

Additional observations from a re-analysis of the deposited data

How the results depend on the processing

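Relative to 2007 higher and 926 lower genes, the lower count was 1769 with DESeq2, 1784 with only the 6 libraries compared, 1552 without the 3 libraries of few genes (elav null replicates 1 and 3, double null replicate 2), 1392 with the 6 libraries and a replicate block together (added after seeing the data), 536 with a 2-fold minimum and 557 to 1344 without 1 library at a time, elav null replicate 3 included. The higher count stayed within 1.5 times in every setting tried, and no gene called in both the edgeR fit reported and an alternative turned its direction. Neuronal genes, 84 higher and 10 lower, had 48 to 110 higher and 4 to 13 lower without 1 library, and 19 lower with DESeq2, 20 with the 6 libraries, 17 with those and the block, and 5 with the 2-fold minimum. Muscle genes, 37 higher in the lists of muscle, junction and tendon, had 1 lower, and 3 with RLE factors, library totals, DESeq2 or without the 3 libraries of few genes, 4 with the 6 libraries with or without the block, 0 with the 2-fold minimum and 0 to 3 without 1 library. Of the cuticle, chitin and related lists, 71 genes were higher and 14 lower, with 22 lower without the 3 libraries of few genes, 8 with the 2-fold minimum and 8 to 15 without 1 library. The cause was not tested. Among named genes E(spl)m3-HLH, at 0.01, was −0.12 with RLE factors and with DESeq2, −0.087 with library totals, −0.010 without a filter, −0.029 with the 6 libraries, −0.066 with the block added and −0.27 to 0.22 without 1 library (−0.0057 without elav null replicate 3). COX3, at 0.14, was −0.0020 with RLE factors and with DESeq2. Without 1 of the 6 libraries compared 22 to 36 of the 192 calls among 201 named genes were lost, and none without elav null replicate 3. With the replicate number as a block 1913 genes were higher and 843 lower. Deviations of same-numbered libraries from their group means had r = −0.04 for number 1, −0.19 for 2 and −0.12 for 3. Unlike numbers had r of −0.12 to 0.19. With 3 libraries a group such values cannot decide whether the numbers pair samples, and no label states it. Depth limits genes of a few counts, and 3 libraries a group limit the size of a difference that can be called, so a gene not called is not shown to be alike in both genotypes.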

Other observations

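Some further gene families, picked from those looked at after the values were seen, also differed. Host genes of small nucleolar RNAs (snoRNAs, which guide modification of rRNA) were higher in WDd for all 6 tested, with log2 fold changes of 1.35 to 3.30. Uhg5 had 56.6, 36.3 and 52.5 CPM in WDd, against 6.88, 12.1 and 8.15 CPM in the double null (difference 2.42 ± 0.26 SE, edgeR adjusted p = 3.31e-05), and Uhg2 was not called without WDd replicate 1 (edgeR adjusted p 0.0809). The snoRNAs themselves summed to 81.4, 63.6 and 81.5 CPM in WDd, against 27.3, 19.8 and 41.1 CPM in the double null, but only 2 of 121 passed the test. Of 9 SmydA genes, which encode SET and MYND domain proteins, 5 were higher and none lower. SmydA-4 had 31.7, 27.6 and 27.0 CPM in WDd, against 4.26, 6.48 and 4.46 CPM in the double null (difference 2.505 ± 0.39 SE, edgeR adjusted p = 0.000485). SmydA-8 had 11.8, 13.1 and 10.3 CPM in WDd, against 2.60, 1.53 and 3.55 CPM in the double null (difference 2.20 ± 0.35 SE, edgeR adjusted p = 0.000572). SmydA-2 was not called without WDd replicate 1 or 3 or double null replicate 1 or 3 (edgeR adjusted p 0.0514 to 0.0872). Of 21 dpr genes, which encode cell surface proteins of neurons, 7 were higher and none lower, and of 35 Ugt genes for conjugating enzymes 9 were higher and none lower. Serpin genes went the other way, with 6 of 24 lower and 1 higher. Over all genes tested 14.3% were higher and 6.60% lower. Not every family looked at leaned one way. Of 83 Cyp genes 13 were higher and 17 lower, of 38 Obp genes 3 and 4, and of 43 Or and 51 Ir genes none was called. Others, such as Tsp and Polr, had more higher than lower genes. Counts without 1 library are not given for the dpr, Ugt and serpin genes. Of 12 iron genes 2 were higher and 3 lower. Of larval eye genes, 19 tested, 3 were higher and 1 lower, shares near the background of 14.3% and 6.60%. Without double null replicate 1 or 3, 1 eye gene was higher, and none was lower without WDd replicate 1 or 2 or double null replicate 1 or 3. Of 8 activity-regulated and immediate early genes 1 was lower (Arc1) and none higher, with 3 lower without elav null replicate 3 and none without any 1 of the WDd libraries or double null replicate 1.

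Transcripts of the oocyte were high in 1 WDd library. dhd, the thioredoxin of the oocyte, had 7.14, 110.0 and 2.89 CPM in WDd, against 0.521, 0.676 and 0.856 CPM in the double null (difference 5.87 ± 1.61 SE, edgeR adjusted p = 0.019), with 10.6, 0.200 and 1.71 CPM in WT. It is 1 of the 12 genes with the largest fold change, and its call was lost without WDd replicate 2 (edgeR adjusted p 0.155) or without any 1 of the double null libraries. Marf1, an RNA regulator of the oocyte, had 2.67, 82.4 and 2.44 CPM in WDd, against 0.726, 0 and 1.37 CPM in the double null (difference 5.41 ± 1.73 SE, edgeR adjusted p = 0.0401), and its edgeR adjusted p was 0.44 without WDd replicate 2 and 0.0806 to 0.127 without any 1 of the double null libraries. CycB, the mitotic cyclin, which embryos also receive from the mother, had 22.0, 179.8 and 37.9 CPM in WDd, against 7.01, 8.98 and 6.07 CPM in the double null (difference 3.44 ± 1.26 SE, edgeR adjusted p = 0.0713). In WT it had 157, 5.32 and 5.51 CPM. WT replicate 1 thus shared the higher CycB and Marf1 levels. The part of this in the count of cell cycle genes was not tested beyond leaving out WDd replicate 2.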
